A study of Homo sapiens with 33 samples.

Results

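The nuclear genes of respiratory complex I are described here by the level of their RNA in cells that carried base editors or controls. The cells were HEK293T, a line derived from human embryonic kidney. The rule took every row of the count table whose symbol begins with NDUFA, NDUFB, NDUFC, NDUFS or NDUFV and a number, or with NDUFAF, together with NDUFAB1, and holds no hyphen. It found 47 of the 26475 genes in the table. Of these, 37 encode subunits of the enzyme and 7 are assembly factors (NDUFAF1 to NDUFAF7), which help to build it and are not part of it. NDUFA4 and NDUFA4L2 carry the name only, since NDUFA4 has been placed in complex IV, and NDUFAF4P1 is a pseudogene. NDUFAF4P1 had 0 to 10 counts in a library and did not pass the filter on low counts, so 46 of the 47 were tested.

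The cells had received plasmids that encode a construct with a GFP marker. All but the GFP group also received a guide RNA plasmid, and cells were collected by fluorescence between 36 and 40 h from transfection. There were 5 constructs, each paired with 2 guides, which target HEKsite2 and RNF2. nCas9, a Cas9 nickase with no deaminase, is a negative control, and ABEmax and miniABEmax-V82G are adenine base editors that serve as the A-to-G controls. Target-AID, a cytosine base editor, is the C-to-T control, and SpACE edits both bases. GFP with no guide is the other negative control. These 11 groups of 3 libraries share the cell line, the transient transfection and the GFP sort. The column names of the SpACE libraries also include UGI, an inhibitor of uracil glycosylase, which their labels leave out.

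Complex I takes electrons from NADH, passes them to ubiquinone and moves protons across the inner mitochondrial membrane. It is L-shaped: a peripheral arm in the matrix carries the flavin and the iron-sulfur clusters, and a membrane arm carries the proton pumps. The core subunits are those shared with bacteria, some of them encoded in the nucleus and the others in the mitochondrial genome, and the accessory subunits surround them. The 37 subunits in the table fall into 7 nuclear core subunits, 9 accessory subunits of the peripheral arm, 9 of the proximal membrane arm, 11 of the distal membrane arm (NDUFB1 to NDUFB11) and NDUFAB1, the mitochondrial acyl carrier protein. The table holds 0 mitochondrially encoded rows, so the core subunits of the membrane arm were not analysed here.

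Promoter sequence was matched by symbol for 40 of the 47 members (RefSeq, GRCh38.p14). Those not matched include NDUFS5, NDUFC2, NDUFB5, NDUFB9, NDUFAF6 and NDUFAF4P1. The 250 bases before the start site are shown for the subunit that was lower in the most editor comparisons (NDUFB3), the subunit with the highest level per coding base in GFP cells (NDUFA1), a core subunit that was not called lower in any comparison (NDUFS3) and an assembly factor that was higher in every construct than in GFP (NDUFAF5). NDUFB3 is at chr2:201071751-201072000, NDUFA1 at chrX:119871582-119871831, NDUFS3 at chr11:47578824-47579073 and NDUFAF5 at chr20:13784778-13785027, all on the plus strand and written 5′ to 3′. Capitals mark matches on either strand to the letters of 4 factors known to act on respiratory genes: GCATGCG for NRF1, CCGGAAG for GABP, ATGGCGG for YY1 and GGGCGG for Sp1.
NDUFB3: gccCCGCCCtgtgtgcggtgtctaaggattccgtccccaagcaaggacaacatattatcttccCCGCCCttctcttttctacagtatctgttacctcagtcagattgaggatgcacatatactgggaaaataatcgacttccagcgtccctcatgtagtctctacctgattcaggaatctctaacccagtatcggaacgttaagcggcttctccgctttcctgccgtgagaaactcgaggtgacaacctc
NDUFA1: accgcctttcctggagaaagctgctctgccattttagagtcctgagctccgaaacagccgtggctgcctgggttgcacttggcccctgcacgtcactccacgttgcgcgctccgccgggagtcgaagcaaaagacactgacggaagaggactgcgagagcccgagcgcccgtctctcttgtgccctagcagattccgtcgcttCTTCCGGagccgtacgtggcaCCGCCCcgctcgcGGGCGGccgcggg
NDUFS3: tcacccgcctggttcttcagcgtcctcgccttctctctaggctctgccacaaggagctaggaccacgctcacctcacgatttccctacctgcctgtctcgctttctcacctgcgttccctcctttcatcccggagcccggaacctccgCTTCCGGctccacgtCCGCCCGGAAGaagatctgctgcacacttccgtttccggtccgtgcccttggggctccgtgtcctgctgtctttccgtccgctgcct
NDUFAF5: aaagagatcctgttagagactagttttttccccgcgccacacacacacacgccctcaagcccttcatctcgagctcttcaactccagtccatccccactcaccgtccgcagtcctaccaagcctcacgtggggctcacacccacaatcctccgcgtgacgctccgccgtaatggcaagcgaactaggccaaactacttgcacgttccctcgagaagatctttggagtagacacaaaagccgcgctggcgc
The NDUFA1 promoter holds a GABP match 47 bases before the start and Sp1 matches 26 and 13 bases before it. NDUFS3 holds GABP matches 102 and 83 bases before the start, the nearer one overlapping an Sp1 match at 87. NDUFB3 holds Sp1 matches at 247 and 187 bases, and NDUFAF5 holds none of the 4 in this stretch.

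Over windows of 300 bases that also include the 50 bases after the start, the Sp1 letters were found in 21 of 32 subunits and in 48.3% of the 27305 genes of the promoter table. The GABP letters were found in 5 of 32 subunits against 12.2% of genes and the NRF1 letters in 6 against 4.74%. The YY1 letters, which begin with those of a start codon, were found in 15 of 32 subunits against 6.66% of genes, and before the start site in 4 against 3.44%. Longer forms of the NRF1 and YY1 motifs, of 10 and 11 bases, were searched first and were found in 2 subunits each, against 1.52% and 1.04% of genes. Of 6 assembly factors, NDUFAF4 and NDUFAF5 held the NRF1 letters (NDUFAF5 in the bases after its start), NDUFAF4 those of GABP, NDUFAF7 those of YY1, and NDUFAF1, NDUFAF2 and NDUFAF3 those of Sp1. A match describes the letters and is not shown to be bound.

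Library totals ran from 6790209 to 11200406 counts, and the 37 subunits together took 0.252 to 0.346% of a library. Levels are in CPM, counts scaled to the library's size with TMM factors, given per library or as the mean ± SD of 3 libraries. Differences are log2 fold changes ± SE from edgeR's quasi-likelihood test, and a gene is called higher or lower where the Benjamini-Hochberg adjusted p over 14613 genes is under 0.05. The labels do not say that replicates were separate cultures, so the p-values reflect no more than the spread between these libraries, which may be technical. HEK293T markers summed to 1694 to 3407 counts per library (PAX2, with 0 to 8, was near 0), against 0 to 18 for hepatocyte markers, 92 to 248 for fibroblast markers (COL1A2 and DCN near 0) and 3 to 21 for blood markers. APOB, a hepatocyte marker, had 63 of its 71 counts in Target-AID. The other hepatocyte markers did not follow it, with 4 of 25 (ALB), 8 of 67 (APOA1), 3 of 15 (TTR) and 0 of 14 (FGB). The part of other kinds of cell in the results was not tested. In bulk RNA, fewer cells of a kind and less RNA per cell cannot be told apart. The third Target-AID library of each guide stood apart from its own replicates, with a chi-square per gene of 9.92 and 13.5 (HEKsite2) and 20.7 and 12.3 (RNF2), against 1.40 to 5.02 for other pairs, so Target-AID results are also given without these 2 libraries. Many subunit genes have processed pseudogenes, and NDUFC2, NDUFV2, NDUFB2 and NDUFA6 overlap a readthrough or antisense gene. How shared reads and strands were counted is not given in the sources used here, so these values are less certain.

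In GFP cells the subunits stood above most assembly factors per kb of coding sequence. The median was 179 CPM per kb over the subunits and 19.9 over the 7 assembly factors. All 37 subunits lay above the median assembly factor, and 21 of them above every assembly factor. By place in the enzyme the medians were 96.7 CPM per kb for the nuclear core, 173 for the peripheral arm, 269 for the proximal and 236 for the distal membrane arm, with NDUFAB1 at 238. The core ranged from 68.2 to 142 and the proximal arm from 80.6 to 782, so the classes overlap.

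NDUFA1, a small subunit with a single membrane helix, stood highest at 782 CPM per kb, with 765 to 798 over the 3 GFP libraries. NDUFA4 followed at 699.8 and NDUFS5, a subunit of the proximal arm, at 511. The lowest subunit was NDUFS7, which holds an iron-sulfur cluster of the core, at 68.2. Among the assembly factors, NDUFAF3, which works on the early peripheral arm, stood at 164 CPM per kb and its partner NDUFAF4 at 70.7. NDUFAF2, a late-stage factor, stood at 48.3 and NDUFAF1, which acts on the membrane arm, at 19.9. NDUFAF5 and NDUFAF7, which each modify an arginine of a core subunit, stood at 18.0 and 15.1, and NDUFAF6 at 10.2. The lowest and highest GFP libraries of NDUFAF5 (17.4 and 18.7) and of NDUFAF7 (13.6 and 16.1) did not overlap.

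**Figure D1:**
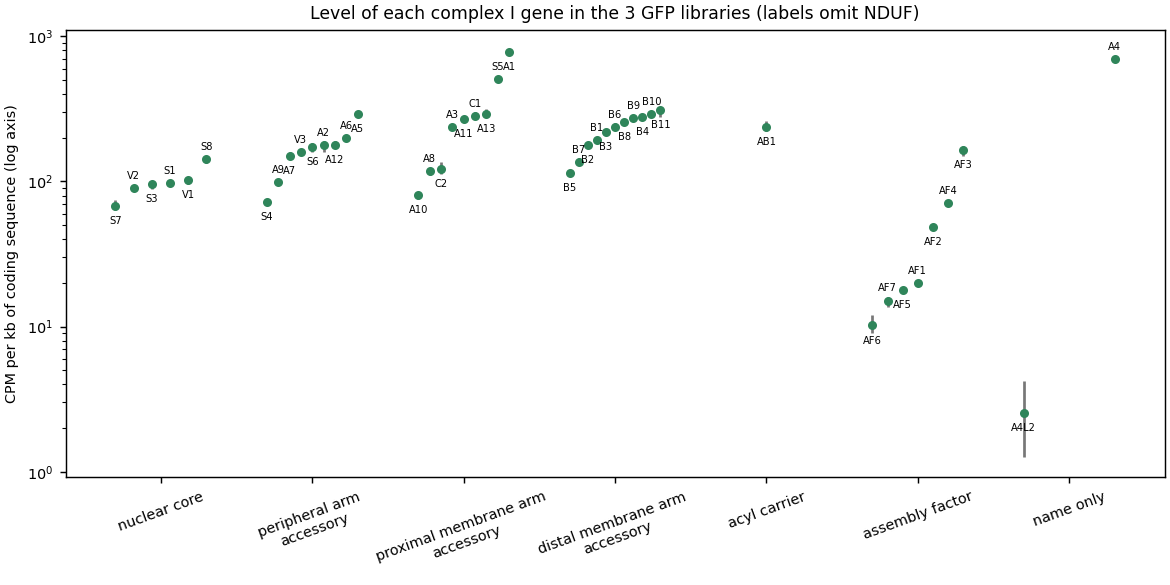
Level of 45 members in the 3 GFP libraries, in CPM per kb of coding sequence on a log axis, grouped by place in the enzyme, with points for the mean and lines for the range of the 3 libraries. NDUFA1 is highest at 782, and 5 of the 7 assembly factors lie below every subunit, from 10.2 to 48.3.

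The summed level of the 37 subunits was 3447 ± 122 CPM in GFP, 3384 ± 188 in nCas9 with HEKsite2 and 3157 ± 168 in nCas9 with RNF2. With the HEKsite2 guide it was 2849 ± 106 in ABEmax, 3191 ± 135 in miniABEmax-V82G, 2708 ± 140 in Target-AID and 3049 ± 62.3 in SpACE. With the RNF2 guide it was 2801 ± 158, 2785 ± 60.9, 2766 ± 417 and 3154 ± 89.3 in the same order. The 3 Target-AID libraries with RNF2 summed to 2451, 2608 and 3239 CPM, so the third lies within the nCas9 range and the others below it. SpACE with RNF2 was the one editor group whose mean lay within 1 SD (that of the control) of its nCas9 control.

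The sum of the 7 assembly factors, which stand apart from the enzyme itself, was 220 ± 8.09 CPM in GFP and 219 to 254 in the means of the other groups. The ratio of the subunit sum to the assembly factor sum was 15.4 to 15.8 in the GFP libraries and 13.7 to 14.4 in nCas9 with HEKsite2. It was 11.9 to 12.7 in nCas9 with RNF2, and the group means of the 8 editor groups were 12 to 13.2. The GFP libraries therefore lay above all 30 others in this ratio.

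**Figure D2:**
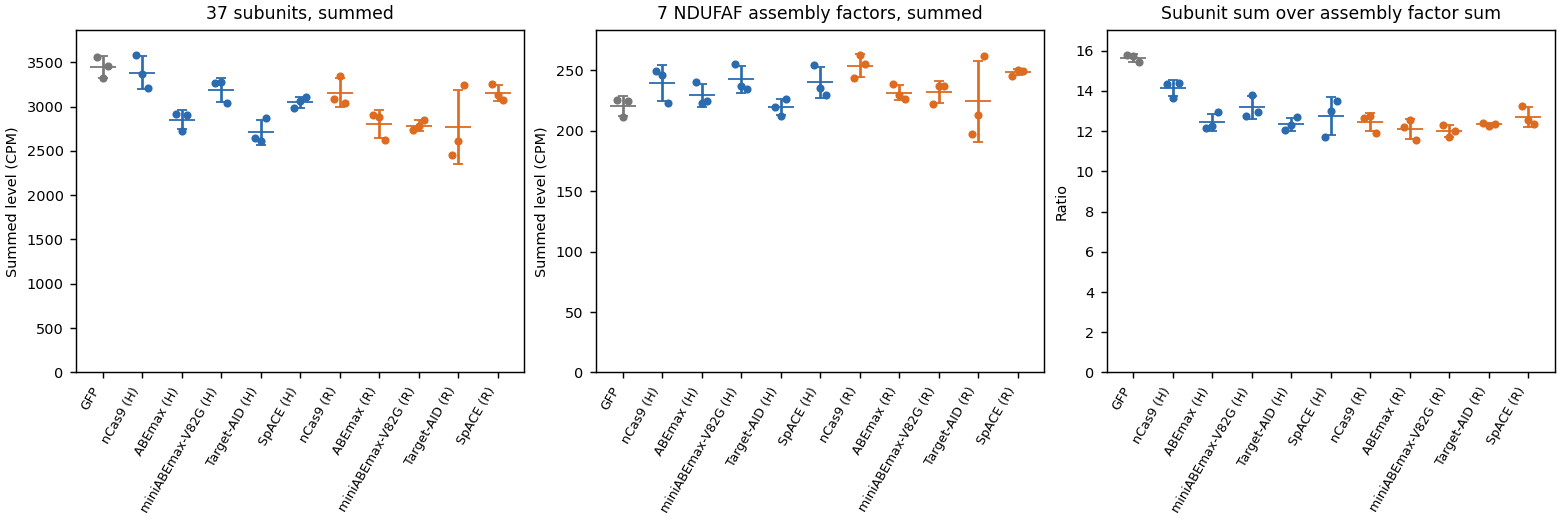
Summed CPM of the 37 subunits, summed CPM of the 7 assembly factors and their ratio, with a point for each of the 33 libraries and a dash and error bar for the mean and SD of each group. The GFP libraries have the highest ratios, at 15.4 to 15.8, and the third Target-AID library with RNF2 lies at 3239 CPM in the subunit sum, above its replicates.

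ABEmax was set against nCas9 with the same guide to ask what this adenine editor adds to the nickase. With the HEKsite2 guide subunits of all 4 places were lower: 16 of 37 were called lower and 0 higher, with a median log2 fold change of -0.23. Of the 46 members 18 were called, against 15.9% of all genes (7.55% lower and 8.31% higher). The median over all genes lay between -0.01 and 0.02 in every comparison below. By place, 7 of 11 distal arm subunits were lower (median -0.37), 4 of 9 proximal (-0.30), 3 of 9 peripheral (-0.20) and 2 of 7 core subunits (-0.17).

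NDUFB5, a distal arm subunit (chr3:179604690-179627647), stood at 66.7, 70.4 and 61.6 CPM in the nCas9 libraries and at 46.6, 41.4 and 44.4 in ABEmax. Every ABEmax library lay below every nCas9 library, and the fold change was -0.58 ± 0.0826 (adjusted p = 1.92e-06). NDUFA2, a thioredoxin-like subunit of the peripheral arm, stood at 51.3, 53.8 and 48.8 CPM against 33.8, 35.1 and 35.0, a fold change of -0.57 ± 0.114 (adjusted p = 0.0005). NDUFB2, of the distal arm, fell by 0.47 ± 0.0731 (adjusted p = 9.71e-06). Of the core, NDUFV1, which binds NADH and the flavin, was lower at -0.23 ± 0.0722, while NDUFS1 and NDUFS3 stood at -0.07 and 0.01 and were not called.

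Among the assembly factors only NDUFAF5 was called with ABEmax and HEKsite2, at 0.28 ± 0.0972 (adjusted p = 0.0441), and its libraries overlap those of nCas9 (30.5, 24.1 and 27.0 CPM against 20.1, 24.1 and 23.2). The other 6 lay between -0.18 and 0.13. The members called were 10 without nCas9 replicate 1 and 11 without ABEmax replicate 2, where NDUFV1 stood at -0.19 (adjusted p = 0.128) and -0.20 (0.105). NDUFV1 also lost its call without nCas9 replicate 2 (0.0718), and NDUFAF5 without replicate 1 or 3 of either group (0.06 to 0.256), with DESeq2 (0.0708), without the filter (0.107) and with only the groups compared in the fit (0.0569). NDUFB5, NDUFA2 and NDUFB2 kept their calls under every alternative tried.

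With ABEmax and the RNF2 guide 9 of 37 subunits were lower and 0 higher, with a median of -0.20. Members called were 11 of 46 against 11.2% of all genes (4.66% lower and 6.51% higher), and 34 of the 37 subunits had a value below 0. All 9 are among the 16 lower with HEKsite2, so the shared calls are 56.2% of one list and 100% of the other. These lists use separate nCas9 and ABEmax libraries. The overlap between guides over all genes called was not counted, so this overlap is not shown to be particular to the subunits. NDUFB5 stood at 56.1, 60.2 and 52.1 CPM in nCas9 and 40.9, 39.2 and 36.1 in ABEmax, groups that do not overlap, and was lower at -0.53 ± 0.0836 (adjusted p = 2.07e-05). NDUFB3 was at -0.42 ± 0.074 (adjusted p = 0.000135) and NDUFB2 at -0.38 ± 0.0715 (adjusted p = 0.000298). None of the 7 core subunits was called, and the assembly factor NDUFAF3 was lower at -0.30 ± 0.0868 (adjusted p = 0.019). Members called numbered 7 and 6 without replicates 1 and 2 of nCas9 and 5 without ABEmax replicate 3, and NDUFAF3 was not called without nCas9 replicate 2 (-0.25, adjusted p = 0.123) or 3 (-0.29, 0.0518) or ABEmax replicate 2 (-0.26, 0.0928).

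miniABEmax-V82G, the other adenine editor, has a single deaminase domain with a substitution. With the HEKsite2 guide it had the fewest members called of the 4 editors with that guide, 8 of 46 against 10.3% of all genes (5.32% lower and 5.02% higher). Of the subunits 5 were lower and 1 higher, with a median of -0.08. NDUFB10, a distal arm subunit, stood at 180, 172 and 166 CPM in nCas9 and at 137, 140 and 128 in the editor, 2 groups that do not overlap, and was lower at -0.36 ± 0.0766 (adjusted p = 0.0016). NDUFA1 was at -0.31 ± 0.0715 (adjusted p = 0.00285) and NDUFB5 at -0.25 ± 0.0779 (adjusted p = 0.0288).

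NDUFS3, an early-assembled core subunit, was the one subunit higher with miniABEmax-V82G and HEKsite2, at 93.0, 86.7 and 84.5 CPM against 81.6, 64.2 and 74.7 in nCas9. The groups do not overlap, and the fold change was 0.26 ± 0.081 (adjusted p = 0.0335). NDUFAF5 was higher at 0.34 ± 0.0932 (adjusted p = 0.0139). The count of members called was 3 without nCas9 replicate 1 and 2, 5 and 4 without replicates 1, 2 and 3 of the editor. NDUFS3 lost its call without any editor replicate (adjusted p = 0.0506 to 0.128) or nCas9 replicate 2 (0.243) or 3 (0.0666), NDUFB5 without any editor replicate (0.0705 to 0.0909) or nCas9 replicate 1 (0.0862) or 2 (0.149), and NDUFAF5 without replicate 1 of nCas9 (0.113) or of the editor (0.0527). NDUFB10 and NDUFA1 kept theirs.

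With the RNF2 guide miniABEmax-V82G had 12 of 37 subunits lower and 0 higher, at a median of -0.20, and 13 of 46 members called against 12.6% of all genes (5.72% lower and 6.88% higher). Of the 12, 5 were distal, 5 proximal and 2 peripheral, and 0 of 7 core subunits were called. NDUFB2 stood at 52.0, 53.1 and 51.5 CPM in nCas9 and at 40.9, 40.8 and 37.3 in the editor, and NDUFB3 at 55.1, 56.0 and 48.9 against 38.5, 39.7 and 43.1. Neither pair of groups overlaps, and the fold changes were -0.40 ± 0.0717 (adjusted p = 0.000256) and -0.40 ± 0.074 (adjusted p = 0.000368). NDUFA2 was at -0.44 ± 0.116 (adjusted p = 0.0092) and NDUFAF3 at -0.29 ± 0.0868 (adjusted p = 0.0216). Members called numbered 3 without nCas9 replicate 2, and 5 and 7 without editor replicates 1 and 2. They numbered 22 when only these 2 groups were fitted, against 21.1% of all genes. NDUFA2 was not called without nCas9 replicate 2 (adjusted p = 0.0855) or editor replicate 1 (0.0862), and NDUFAF3 without those (0.129 and 0.124) or nCas9 replicate 3 (0.0557). Of the 5 subunits lower with HEKsite2, 4 were also lower with RNF2, which is 80% of that list and 33.3% of the list of 12. The same overlap over all genes was not counted.

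Target-AID was compared with nCas9 in the same way and had the most members called. With the HEKsite2 guide 26 of 37 subunits were lower and 0 higher, with a median of -0.37, and 29 of 46 members were called against 40.6% of all genes (19.1% lower and 21.5% higher). By place, 10 of 11 distal subunits (median -0.44), 7 of 9 proximal (-0.45), 7 of 9 peripheral (-0.42) and 2 of 7 core subunits (-0.20) were lower. Without the third Target-AID libraries 30 of 37 subunits were lower, against 18.6% of all genes.

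NDUFB3, a distal arm subunit with a single helix (chr2:201071433-201085750), stood at 62.0, 55.9 and 54.8 CPM in nCas9 and 34.9, 38.2 and 36.7 in Target-AID. NDUFA1 (chrX:119871487-119876662) stood at 169, 149 and 146 CPM against 92.6, 104 and 100.1. In both genes every Target-AID library lay well below every nCas9 library, and the fold changes were -0.65 ± 0.0731 (adjusted p = 2.06e-09) and -0.65 ± 0.0726 (adjusted p = 2.26e-09). NDUFA2 was at -0.64 ± 0.111 (adjusted p = 1.17e-05).

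The core was lower in 2 of its 7 members with Target-AID and HEKsite2, NDUFV1 among them at -0.30 ± 0.0711. NDUFS1, which holds iron-sulfur clusters and is the longest coding sequence among the subunits, stood at 206, 198 and 199 CPM against 191, 189 and 179. Its groups do not overlap, but its value of 0.11 was not called (adjusted p = 0.122). Of the assembly factors NDUFAF3 fell by 0.35 ± 0.0872 (adjusted p = 0.00115) and NDUFAF5 rose by 0.38 ± 0.0926 (adjusted p = 0.000896).

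With the RNF2 guide Target-AID had 21 subunits lower and 1 higher, a median of -0.23 and 25 of 46 members called against 35.2% of all genes (15.8% lower and 19.4% higher). Of these 21, 20 were also lower with HEKsite2, which is 95.2% of this list and 76.9% of the other. The same overlap over all genes was not counted. NDUFB3 stood at 55.1, 56.0 and 48.9 CPM in nCas9 and 36.2, 35.9 and 37.9 in Target-AID, with no overlap, and was lower at -0.54 ± 0.0734 (adjusted p = 1.83e-07). NDUFA2 was lower at -0.45 ± 0.113 (adjusted p = 0.00197), with 24.6, 31.6 and 37.4 CPM against 38.5, 47.4 and 41.9, and NDUFA1 at -0.43 ± 0.0728 (adjusted p = 1.05e-05). In NDUFA2 and in other members the third Target-AID library lay nearest to nCas9, and 12 of the 25 called members (48%) had groups that do not overlap, against 86.1% of all genes called.

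NDUFAF3 stood at 62.6, 69.7 and 87.4 CPM against 89.7, 103 and 98.0 and was lower at -0.40 ± 0.0862 (adjusted p = 0.000276). Its partner NDUFAF4 was lower at -0.33 ± 0.0946 (adjusted p = 0.00565), with groups that overlap through the third library (31.2, 33.1 and 45.3 CPM against 43.1, 49.0 and 45.9). NDUFS1 was the subunit called higher, at 190, 187 and 191 CPM against 175, 177 and 161, a fold change of 0.15 ± 0.0553 (adjusted p = 0.0324), and NDUFS8, an iron-sulfur subunit of the core, was lower at -0.26 ± 0.0975 (adjusted p = 0.0328). Without the third Target-AID libraries 31 members were called, against 38% of all genes. Of the subunits 28 were then lower, against 17.4% of all genes, and 0 higher. NDUFS1 lost its call (0.14, adjusted p = 0.055), and NDUFA2, NDUFA1, NDUFAF3 and NDUFAF4 stood at -0.59, -0.52, -0.55 and -0.51. When only the 2 groups were fitted 13 members were called, against 25.1% of all genes. Without Target-AID replicate 1, 13 were called too, and NDUFS8 (-0.13, adjusted p = 0.338), NDUFAF4 (-0.23, 0.0773) and NDUFS1 (0.15, 0.0766) were not. Leaving out Target-AID replicate 2 also ended the calls of NDUFS8 (0.086), NDUFAF4 (0.051) and NDUFS1 (0.0529), replicate 3 that of NDUFS1 (0.059), nCas9 replicate 3 those of NDUFS8 (0.0514) and NDUFS1 (0.181), and nCas9 replicate 2 that of NDUFS8 (0.262).

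SpACE, which joins an adenine and a cytosine deaminase, was compared with nCas9 last. With the HEKsite2 guide 10 of 37 subunits were lower and 1 higher, with a median of -0.16, and 13 of 46 members were called against 21% of all genes (10.2% lower and 10.7% higher). NDUFA2 stood at 32.1, 39.6 and 40.8 CPM against 51.3, 53.8 and 48.8 in nCas9 and was lower at -0.45 ± 0.11 (adjusted p = 0.00269). NDUFB3 stood at 40.7, 46.9 and 46.7 CPM against 62.0, 55.9 and 54.8, and was lower at -0.36 ± 0.0717 (adjusted p = 0.000273). In neither gene do the groups overlap. NDUFC1, of the proximal arm, was lower at -0.36 ± 0.0983 (adjusted p = 0.00749) and the core subunit NDUFV1 at -0.23 ± 0.0711 (adjusted p = 0.0167).

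NDUFV2, the iron-sulfur partner of NDUFV1 in the NADH-binding tip, went the other way with SpACE. It stood at 54.6, 64.3 and 65.1 CPM with HEKsite2 against 54.6, 52.9 and 51.5 in nCas9, a fold change of 0.21 ± 0.0722 (adjusted p = 0.0311). With RNF2 it stood at 61.9, 57.0 and 58.0 CPM against 51.0, 50.8 and 45.2, a fold change of 0.27 ± 0.0729 (adjusted p = 0.00996). Its lowest SpACE library with HEKsite2 matches the highest of nCas9 to the digits shown, and with RNF2 the groups are apart.

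NDUFAF5 was higher with SpACE and HEKsite2 at 0.27 ± 0.0941 (adjusted p = 0.0346), and the other 6 assembly factors were not called, at -0.08 to 0.12. The members called were 7 without nCas9 replicate 1 and 8 without SpACE replicate 1, where NDUFC1 (adjusted p = 0.0569 and 0.0946) and NDUFAF5 (0.21 and 0.213) were not called, and NDUFAF5 was also lost without nCas9 replicate 3 (0.0508), with DESeq2 (0.0682), without the filter (0.0648) and with only the groups compared in the fit (0.0565). NDUFV1 lost its call without nCas9 replicate 1 (0.103) or 2 (0.0611) or SpACE replicate 2 (0.0524) or 3 (0.0872), and NDUFV2 without replicate 2 or 3 of nCas9 (0.0747 and 0.103) or of SpACE (0.138 and 0.15), with DESeq2 (0.0552) and without the filter (0.059).

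With the RNF2 guide SpACE had 3 of 46 members called against 14.7% of all genes (6.68% lower and 8.03% higher). The subunit median was -0.01, with 23 of 37 below 0. NDUFB3 was lower at -0.22 ± 0.0719 (adjusted p = 0.0296), with 43.7, 46.2 and 47.4 CPM against 55.1, 56.0 and 48.9. NDUFS4, an accessory subunit that tightens the peripheral arm, was higher at 0.25 ± 0.0729 (adjusted p = 0.0172), with 43.3, 40.7 and 38.0 CPM against 34.9, 35.2 and 32.8, and NDUFV2 was the other gene called. None of these 3 pairs of groups overlaps, and 0 of the 7 assembly factors were called. The count was 1 without SpACE replicate 1, where NDUFV2 stood at adjusted p = 0.064 and NDUFS4 at 0.116, and 1 without nCas9 replicate 3 (0.087 and 0.0895). NDUFB3 lost its call without replicate 1 or 2 of nCas9 (0.119 and 0.137) or of SpACE (0.136 and 0.0597), with DESeq2 (0.0523) and without the filter (0.112).

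Across the 8 comparisons of an editor with nCas9, NDUFB3 was lower in all 8, and NDUFA1, NDUFB5 and NDUFB10 in 7. NDUFA3 and NDUFS5 were lower in 6, and NDUFA2, NDUFA5, NDUFA12, NDUFB2, NDUFB6 and NDUFC1 in 5. Another 10 subunits were lower in 0 of them. These were the core subunits NDUFS1, NDUFS3, NDUFS7 and NDUFV2, the accessory subunits NDUFA9, NDUFA11, NDUFA13, NDUFS4 and NDUFB7, and NDUFAB1. Of all genes 4.66 to 19.1% were lower in a single comparison. These tallies were not set against the same tally over all genes, so none is shown to be unusual. Editors with the same guide share nCas9 libraries, so these 8 counts are not independent. NDUFA3, NDUFS5, NDUFA5, NDUFA12, NDUFB6 and the list of 10 were picked after their values were seen. Several of these calls were lost without single libraries. NDUFB3 also lost its call with miniABEmax-V82G and HEKsite2 without nCas9 replicate 1 (-0.19, adjusted p = 0.135) or editor replicate 1 (-0.22, 0.0815) or 3 (-0.22, 0.09). NDUFA1 with RNF2 lost its call for ABEmax without any one of the 6 libraries but nCas9 replicate 3 (adjusted p = 0.0651 to 0.233), and for miniABEmax-V82G without nCas9 replicate 2 (0.065), as did NDUFB10 (0.067). NDUFB5 lost its call for miniABEmax-V82G without replicate 1 or 2 of either group with either guide or editor replicate 3 with HEKsite2 (0.0587 to 0.153), for SpACE with HEKsite2 without replicate 1 of either group or nCas9 replicate 2 (0.0521 to 0.107), and for Target-AID with RNF2 without editor replicate 1 (0.0662) or with only the groups compared in the fit (0.0552).

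**Figure D3:**
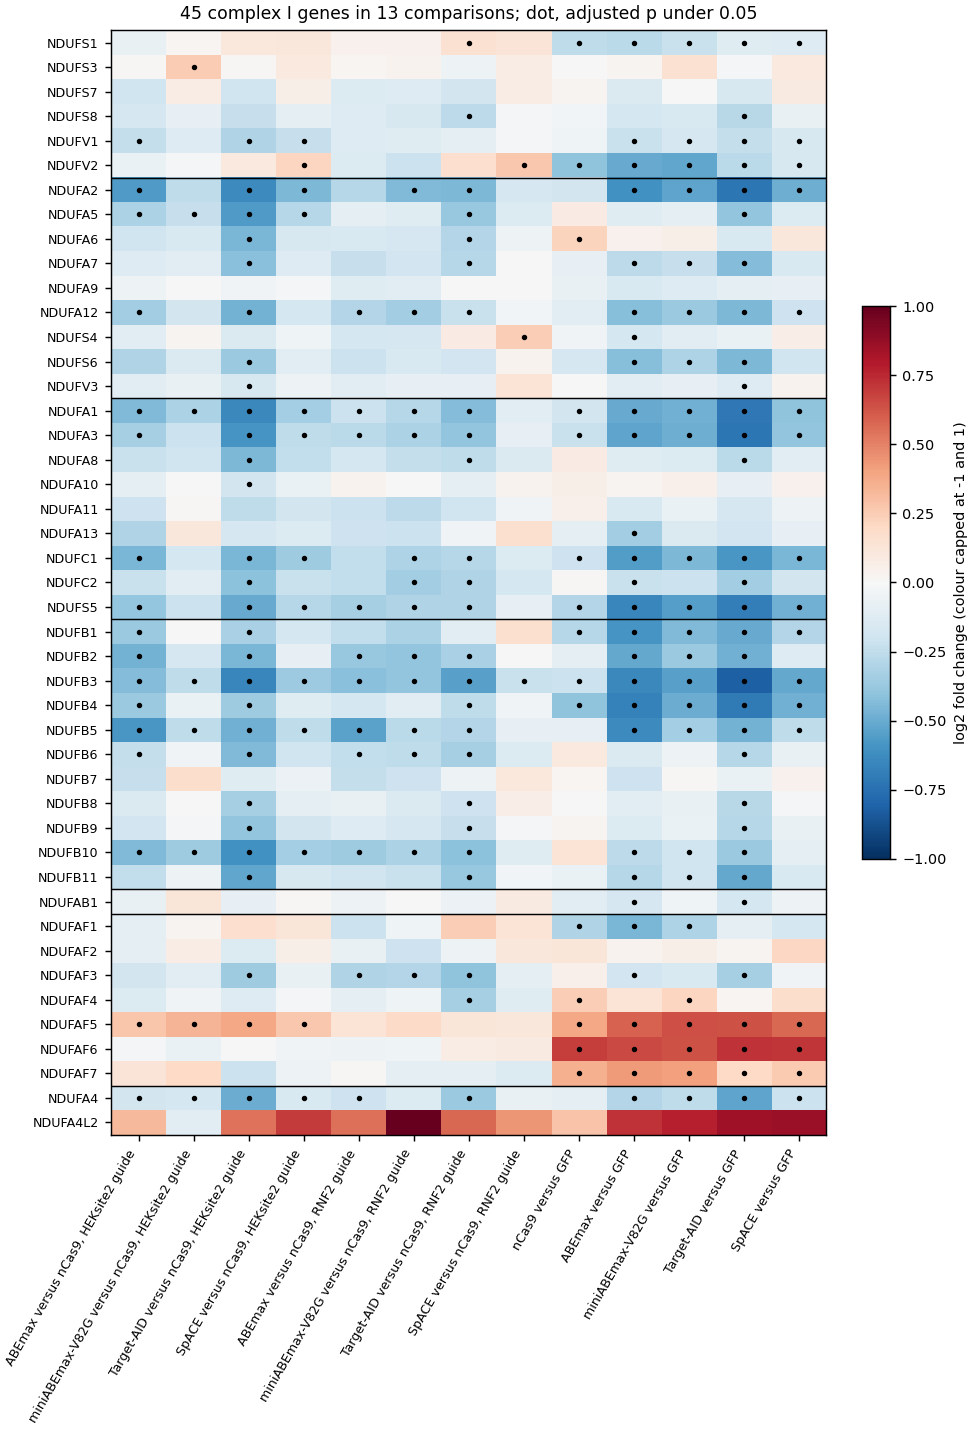
Log2 fold changes of 45 of the tested members (rows, ordered by place in the enzyme) in the 8 comparisons of an editor with nCas9 and the 5 with GFP (columns), with colour limited to -1 to 1 and a dot where the adjusted p is under 0.05. NDUFB3 has a dot in all 13 columns, and NDUFAF5, NDUFAF6 and NDUFAF7 are higher in the 5 GFP columns.

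The 7 assembly factors split in these comparisons. NDUFAF3 was lower in 4 of 8 (both Target-AID comparisons, and ABEmax and miniABEmax-V82G with RNF2) and NDUFAF4 in 1, while NDUFAF5 was higher in 4, all with HEKsite2. NDUFAF1, NDUFAF2, NDUFAF6 and NDUFAF7 were called in 0 of 8. NDUFAF5 stood at 20.1, 24.1 and 23.2 CPM in nCas9 with HEKsite2 and at 26.4, 25.1 and 27.4 with RNF2, with no overlap and a guide difference of 0.23 that was not called (adjusted p = 0.218). All 24 editor libraries lay between 24.1 and 32.0 CPM in NDUFAF5.

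Each construct was then set against GFP, which carries no Cas9 and no guide. All 5 comparisons use the same 3 GFP libraries, so their values are given side by side and not counted as separate support. In nCas9, 15 of 46 members were called against 45.5% of all genes (22.7% lower and 22.8% higher). Of the subunits 9 were lower and 1 higher, with a median of -0.07. NDUFB4, of the distal arm, stood at 109, 105 and 108 CPM in GFP and at 82.7, 84.3 and 83.2 (HEKsite2) and 78.8, 82.2 and 78.0 (RNF2) in nCas9. The 6 nCas9 libraries lay below the 3 of GFP, with a fold change of -0.40 ± 0.0651 (adjusted p = 2.72e-06). NDUFV2 was lower by a like amount, at -0.40 ± 0.0605 (adjusted p = 7.97e-07), NDUFS5 at -0.29 ± 0.0653 (adjusted p = 0.000306) and NDUFS1 at -0.25 ± 0.0469 (adjusted p = 2.85e-05).

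In nCas9 4 of 7 assembly factors were higher than in GFP and 1 lower, with a median of 0.25. NDUFAF6, a factor needed early for the membrane arm, stood at 8.97, 12 and 9.49 CPM in GFP and at 17.8, 16.0 and 16.4 (HEKsite2) and 16.5, 16.0 and 16.3 (RNF2) in nCas9. Every nCas9 library lay above every GFP library, and the fold change was 0.69 ± 0.109 (adjusted p = 1.64e-06). NDUFAF5 (chr20:13784950-13821582) stood at 19.3, 18.5 and 18.0 CPM in GFP, below all 6 nCas9 libraries, and was higher at 0.38 ± 0.0835 (adjusted p = 0.000228). NDUFAF7, at 21.3, 18.1 and 20.6 CPM in GFP and 26.6, 23.0, 25.5, 27.0, 24.6 and 26.3 in nCas9, was higher at 0.35 ± 0.0841 (adjusted p = 0.000631). NDUFAF4 was higher at 0.25 ± 0.0817 (adjusted p = 0.0119) and NDUFAF1 lower at -0.30 ± 0.0991 (adjusted p = 0.0115). NDUFAF4 lost its call without GFP replicate 3 (0.21, adjusted p = 0.0683).

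In the editors NDUFAF6 stood 0.66 ± 0.11 (ABEmax), 0.63 ± 0.109 (miniABEmax-V82G), 0.72 ± 0.107 (Target-AID) and 0.72 ± 0.107 (SpACE) above GFP. It was called in 0 of the 8 comparisons with nCas9, at -0.07 to 0.09. NDUFAF5 stood 0.59 ± 0.0827, 0.65 ± 0.0815, 0.64 ± 0.0809 and 0.57 ± 0.0815 above GFP in the same order, and NDUFAF7 0.42 ± 0.0842, 0.41 ± 0.0834, 0.20 ± 0.0838 and 0.26 ± 0.0838, all called. The NDUFAF6 and NDUFAF5 calls held under every alternative tried. The NDUFAF7 call in Target-AID was lost without the third Target-AID libraries (0.16, adjusted p = 0.127) and without HEKsite2 replicate 2 (0.0805), RNF2 replicate 3 (0.141) or GFP replicate 2 (0.273) or 3 (0.0591), and also with DESeq2 (0.0847), without the filter (0.135) and with only the groups compared in the fit (0.124). In SpACE it was lost without GFP replicate 2 (0.19, adjusted p = 0.113). The GFP group lacks both Cas9 and a guide plasmid. It is listed with 37.5 µg of construct plasmid and no guide plasmid, and the other groups with 12.5 µg of guide plasmid besides. The parts of Cas9, the guide and the plasmid amount in these differences cannot be told apart.

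**Figure D4:**
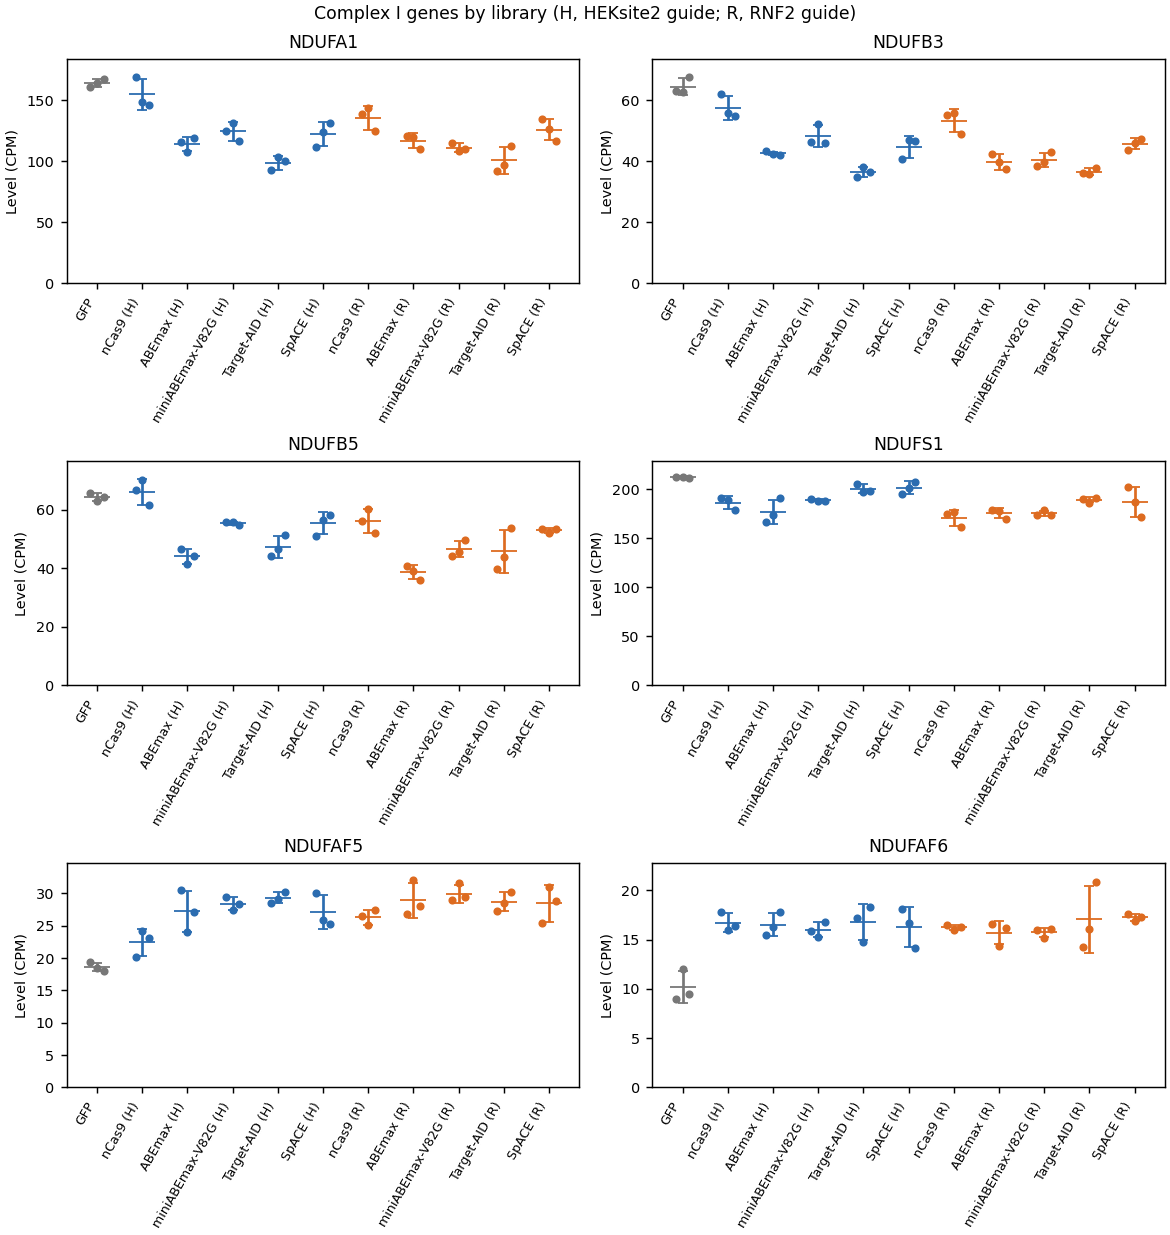
CPM of NDUFA1, NDUFB3, NDUFB5, NDUFS1, NDUFAF5 and NDUFAF6 in each of the 33 libraries, with a dash and error bar for the mean and SD of each group. NDUFB3 is 62.8 to 67.8 in GFP and at most 52.4 in the editors, and NDUFAF6 is 8.97 to 12 in GFP and at least 14.1 elsewhere.

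The subunits were lower than in GFP in each editor. With ABEmax 23 of 37 were lower and 0 higher (median -0.26), with 29 of 46 members called against 54% of all genes (27% in each direction). With miniABEmax-V82G 19 were lower and 0 higher (-0.20), with 25 members called against 48.5% (24.3% lower and 24.2% higher). With Target-AID 28 were lower and 0 higher (-0.29), with 33 members called against 51.9% (24.6% lower and 27.4% higher). Without the third Target-AID libraries 34 were lower, against 24.5% of all genes. With SpACE 14 were lower and 0 higher (-0.13), with 18 members called against 43.3% (21.9% lower and 21.4% higher). In nCas9 and SpACE the share of members called lies below that of all genes, and in the other 3 constructs above it.

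NDUFB3 stood at 63.0, 62.8 and 67.8 CPM in GFP. Its difference from GFP was -0.22 ± 0.0587 in nCas9, -0.64 ± 0.0603 in ABEmax, -0.54 ± 0.0594 in miniABEmax-V82G, -0.82 ± 0.0597 in Target-AID and -0.51 ± 0.059 in SpACE. Every library of these constructs lay below every GFP library. NDUFB4 and NDUFS5 were at -0.68 ± 0.0661 and -0.65 ± 0.0659 in ABEmax, and NDUFS5 at -0.55 ± 0.0654 in miniABEmax-V82G. NDUFA2 and NDUFA3, a small subunit of the proximal arm, were both at -0.72 in Target-AID (SE 0.0916 and 0.0741). In SpACE, NDUFA2 was at -0.49 ± 0.0907 and NDUFB4 at -0.48 ± 0.0648.

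NDUFA1, NDUFA3, NDUFB1, NDUFB3, NDUFB4, NDUFC1, NDUFS1, NDUFS5 and NDUFV2 were lower than GFP in all 5 constructs. Of all genes 21.9 to 27% were lower in a single one of these comparisons, which share their GFP libraries. This tally was not set against the same tally over all genes, so it is not shown to be unusual. Of the core subunits NDUFS1 stood at 213, 213 and 211 CPM in GFP and was lower by 0.12 to 0.27 on the log2 scale, and NDUFV2 at 69.8, 64.3 and 67.8 CPM and was lower by 0.16 to 0.52. NDUFV1 was lower in the 4 editors (-0.16 to -0.24), NDUFS8 in Target-AID (-0.27 ± 0.0825), and NDUFS3 and NDUFS7 in 0 of 5. NDUFAF1 was lower in nCas9, ABEmax (-0.46 ± 0.101) and miniABEmax-V82G (-0.31 ± 0.0985), and NDUFAF3 in ABEmax (-0.19 ± 0.0739) and Target-AID (-0.33 ± 0.0732). Without GFP replicate 1 or 3 alone, calls were lost in SpACE for NDUFS1 (adjusted p = 0.0733 and 0.0561), NDUFV1 (0.091 and 0.151) and NDUFV2 (0.141 and 0.075), in Target-AID for NDUFS1 (0.0759 and 0.0555), in miniABEmax-V82G for NDUFV1 (0.0729 and 0.123) and in ABEmax for NDUFAF3 (0.086 and 0.185). Leaving out other single libraries ended the same 6 calls at adjusted p = 0.0501 to 0.0972, and NDUFS1 in SpACE was also lost without the filter (0.068) and with only the groups compared in the fit (0.0574). In nCas9, NDUFC1 was lost without GFP replicate 1 (0.178), HEKsite2 replicate 3 (0.0694) or RNF2 replicate 1 (0.0695) or 3 (0.061), NDUFB1 without GFP replicate 1 (0.0535) or 3 (0.0671) and NDUFA1 without GFP replicate 3 (0.0549). In SpACE, NDUFB1 was lost without GFP replicate 3 (0.0629) or HEKsite2 replicate 1 (0.0502). Of the 9 genes, NDUFA3, NDUFB3, NDUFB4 and NDUFS5 kept all 5 calls under every alternative tried.

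SpACE was compared with each single editor over both guides. Against ABEmax 14 subunits were higher and 0 lower, with a median of 0.13, and 15 of 46 members were called against 21.3% of all genes (11% lower and 10.3% higher). NDUFB5 was higher in SpACE at 0.39 ± 0.0588 (adjusted p = 4.7e-06), NDUFB2 at 0.38 ± 0.0507 (adjusted p = 4.48e-07) and NDUFV2 at 0.34 ± 0.0522 (adjusted p = 5.81e-06). All 6 SpACE libraries lay above all 6 of ABEmax in these 3 genes. Of the core, NDUFS1 (0.14 ± 0.0392) and NDUFS7 (0.24 ± 0.0789) were also called, and of the assembly factors NDUFAF1 (0.28 ± 0.0876), all with overlapping groups. NDUFS7 lost its call without ABEmax replicate 1 or SpACE replicate 3 of HEKsite2, or without ABEmax replicate 1 or 2 or SpACE replicate 2 of RNF2 (adjusted p = 0.0578 to 0.0953). NDUFAF1 lost it without ABEmax replicate 3 of HEKsite2 (0.0672) or SpACE replicate 1 of RNF2 (0.0651).

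Against miniABEmax-V82G 3 members were called, all higher in SpACE, against 5.95% of all genes (2.74% lower and 3.21% higher). They were NDUFV2 (0.36 ± 0.0515, adjusted p = 3.49e-05), NDUFB2 (0.24 ± 0.0493, adjusted p = 0.00247) and NDUFS4 (0.17 ± 0.0515, adjusted p = 0.0401), named after their values were seen since their groups overlap. The median over the subunits was 0.06. NDUFV2 and NDUFB2 kept their calls under every alternative, and NDUFS4 lost it under 13 of 18.

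Against Target-AID 23 subunits were higher in SpACE and 0 lower, with a median of 0.21, and 25 of 46 members were called against 32% of all genes (17.2% lower and 14.9% higher). NDUFB2 was higher at 0.35 ± 0.0492 and NDUFB3 at 0.31 ± 0.0524, and of the assembly factors NDUFAF3 at 0.29 ± 0.061. Of the 25, 5 (20%) have groups that do not overlap, against 36.1% of all genes called. Without the third Target-AID libraries 38 members were called, 34 of them subunits higher in SpACE, against 35.1% of all genes, and without replicate 3 of RNF2 alone 39.

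The guide alone was tested within nCas9, where 1 of 46 members was called against 2.07% of all genes (1.46% lower and 0.602% higher). That call was lost without replicate 1 of HEKsite2 or replicate 2 or 3 of RNF2. At an unadjusted p under 0.05 there were 11 of 46 members, against 15.2% of all genes, and 30 of 37 subunits lay below 0, with a median of -0.10, against 7290 of 14613 genes and a median of 0. Whether an editor's difference depends on the guide was tested by interaction, and 0 of 46 members were called for any editor by edgeR or by DESeq2, against 0 genes (ABEmax), 0.0137% (miniABEmax-V82G), 0.164% (Target-AID) and 0.0274% (SpACE) of all genes. At an unadjusted p under 0.05 the counts were 2, 3, 4 and 5 of 46, against 4.08%, 6.72%, 8.66% and 7.41% of all genes. Interaction values below 0 were found for 1 of 37 subunits with SpACE (median 0.14) and 2 with Target-AID (0.13). They were found for 8 with ABEmax (0.06) and 31 with miniABEmax-V82G (-0.12). The median over all genes was 0.00153 to 0.00242. Every interaction subtracts the same guide difference in nCas9, whose subunit median was -0.10, so these values are not independent of it or of each other. A shift of the subunits as a set was not tested. So the count of 10 subunits lower with SpACE and HEKsite2 beside 1 with RNF2 is not shown to be a difference between the guides for any single subunit.

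NDUFA4 was lower in 6 of 8 editor comparisons with nCas9 and in the 4 editors against GFP. It stood at 168, 159 and 171 CPM in nCas9 and 114, 116 and 123 in Target-AID with HEKsite2, groups that do not overlap, at a fold change of -0.50 ± 0.0571 (adjusted p = 3.88e-09). With RNF2 the Target-AID value was -0.37 ± 0.0572 (adjusted p = 2.28e-06). With ABEmax it was lower at -0.19 ± 0.0573 (HEKsite2) and -0.21 ± 0.0573 (RNF2), with miniABEmax-V82G and HEKsite2 at -0.18 ± 0.0564 and with SpACE and HEKsite2 at -0.15 ± 0.0564. These 4 calls were each lost without 2 to 5 of the single libraries (adjusted p = 0.0505 to 0.15), nCas9 replicate 1 among them each time. NDUFA4L2, a relative of NDUFA4 induced by hypoxia, had group means of 0.664 to 1.93 CPM and was called in 0 comparisons. Another assembly factor, NDUFAF8, is listed under its older symbol C17orf89 and so falls outside the rule. It was lower than nCas9 with HEKsite2 in ABEmax (-0.38 ± 0.116, adjusted p = 0.0200) and Target-AID (-0.46 ± 0.112, adjusted p = 0.00104). Against GFP it was also lower in ABEmax (-0.25 ± 0.0953, adjusted p = 0.0243) and Target-AID (-0.29 ± 0.0935, adjusted p = 0.00883). It was called in no other comparison.

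Most of the lower subunits have short coding sequences. Of the 37, 22 have at most 500 coding bases, 10 more have at most 1000, 4 more at most 2000 and 1 (NDUFS1) has over 2000. Short genes were lower with the editors across the whole table too. With ABEmax and HEKsite2, 28.7% of the 1064 tested genes of at most 500 coding bases were lower, and 12 of the 22 subunits. With Target-AID and HEKsite2 these were 46.2% of genes and 18 of 22 subunits, with SpACE 24.4% and 7, and with miniABEmax-V82G 11.5% and 3. With RNF2 they were 17.9% and 7 (ABEmax), 19.0% and 10 (miniABEmax-V82G), 34.3% and 15 (Target-AID) and 7.89% and 1 (SpACE). Among genes over 2000 coding bases, 2.78% were lower with ABEmax and 10.5% with Target-AID, both with HEKsite2.

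Across genes, Spearman's rho between coding length and fold change was 0.30 over 13248 genes and 0.60 over the 37 subunits for ABEmax with HEKsite2, and 0.29 and 0.63 for Target-AID. It was 0.09 and 0.47 for SpACE with RNF2. These values are against nCas9. Against GFP rho was -0.12 over all genes and 0.27 over the subunits in nCas9. In the same order it was 0.08 and 0.44 in ABEmax and 0.04 and 0.46 in miniABEmax-V82G. In Target-AID it was 0.13 and 0.68, and in SpACE 0.00075 and 0.49. The trend over all genes thus differed with the control used. The genes of a library share its depth and RNA, so these are descriptions. When an offset for the trend of all genes with coding length was added to the fit, an alternative chosen after seeing the data, the subunits called lower were 12, 3, 20 and 7 with HEKsite2 (ABEmax, miniABEmax-V82G, Target-AID, SpACE) and 5, 3, 9 and 0 with RNF2, each of 37. Under the same offset 6.26%, 5.86%, 19.1% and 9.86% of all genes were lower with HEKsite2 and 3.8%, 3.93%, 16.3% and 7.67% with RNF2. The subunits lower than GFP were 8 in nCas9, against 24.2% of all genes, and 20, 18, 24 and 12 in the editors, against 28%, 26%, 26.5% and 24.1%. The median over the subunits with Target-AID and HEKsite2 went from -0.37 to -0.18. NDUFB3 then stood at -0.24, -0.17, -0.38 and -0.22 with HEKsite2 and at -0.26, -0.21, -0.34 and -0.17 with RNF2, and was no longer called with miniABEmax-V82G and HEKsite2 (adjusted p = 0.0801) or with SpACE and RNF2 (adjusted p = 0.0776). With RNF2, NDUFA1 was no longer called with ABEmax (-0.01, adjusted p = 0.919) or miniABEmax-V82G (-0.06, 0.542), nor NDUFB5 with miniABEmax-V82G (-0.16, 0.119). Against GFP the offset ended the calls of NDUFA1 (-0.09, adjusted p = 0.12) and NDUFC1 (-0.13, 0.0825) in nCas9, NDUFB1 in SpACE (-0.15, 0.106), NDUFAF3 in ABEmax (-0.12, 0.0944) and NDUFAF7 in Target-AID (0.13, 0.178). NDUFAF3 was no longer called with ABEmax (-0.21, adjusted p = 0.0622) or miniABEmax-V82G (-0.18, 0.116) and RNF2, nor was NDUFA2 with miniABEmax-V82G and RNF2 (-0.26, 0.0741). NDUFAF5 stood at 0.31, 0.35, 0.41 and 0.30 with HEKsite2, and 0.31 to 0.60 against GFP. The part of RNA fragment length or quality in the length trend was not tested.

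**Figure D5:**
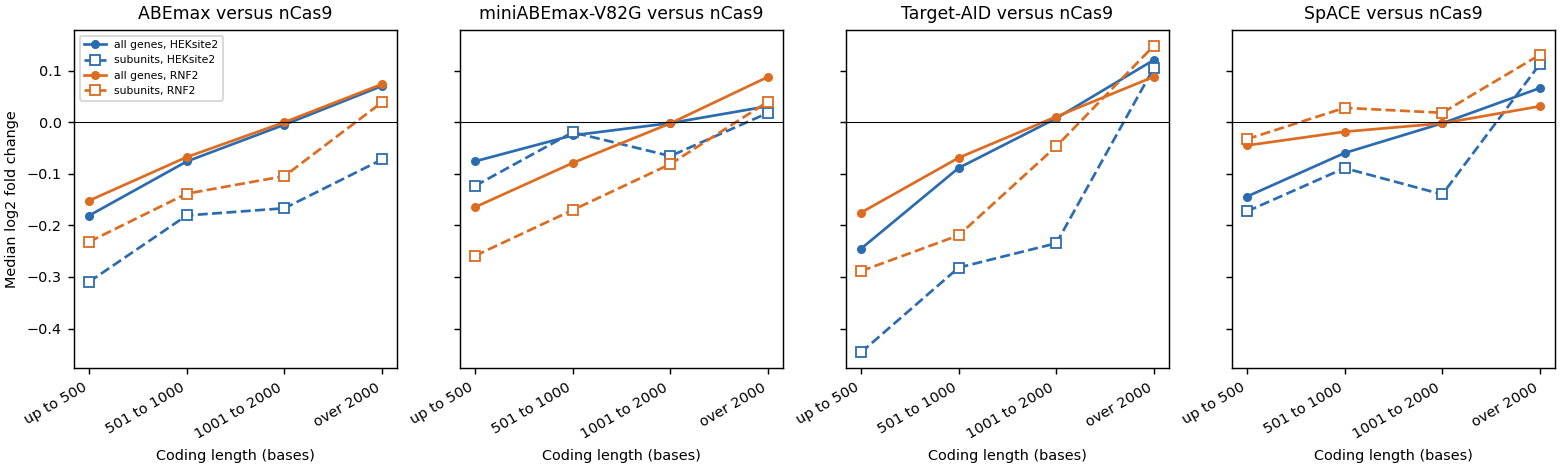
Median log2 fold change by class of coding length for all tested genes and for the complex I subunits, in the 8 comparisons of an editor with nCas9. With Target-AID and HEKsite2 the genes of at most 500 coding bases have a median of -0.25 and those over 2000 of 0.12.

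Genes of the other respiratory complexes were counted in the same fits. The complex II list holds the subunits SDHA to SDHD and also the assembly factors SDHAF1 to SDHAF4. Its counts are therefore not of subunits alone, unlike those of complex I. With Target-AID and HEKsite2, 10 of 10 genes of complex IV (cytochrome c oxidase) were lower, 14 of 15 of complex V (ATP synthase), 6 of 9 of complex III and 3 of 8 of complex II, against 26 of 37 complex I subunits and 19.1% of all genes. With ABEmax and HEKsite2 these were 6, 9, 4 and 3, against 7.55% of all genes, and with SpACE and RNF2 1 in each complex, against 6.68%. Among them, ATP5G1, a ring subunit of ATP synthase, was lower in all 8 comparisons with nCas9, from -0.27 ± 0.0874 (miniABEmax-V82G, HEKsite2) to -0.55 ± 0.0918 (ABEmax, HEKsite2), and was chosen after its values were seen. The medians of complex I subunits, complex IV and complex V with Target-AID and HEKsite2 were -0.37, -0.47 and -0.44.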

How the data were processed

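RNA-seq of 33 libraries in 11 groups of 3 was analysed. The values are whole-number read counts per gene in 1 table deposited by the authors. Per the submitters' processing notes, STAR, GATK 3.8.1, Picard 2.7 and build GRCh38 were used, with no role or order stated, and neither counting tool nor strand setting is given in the sources used here. The table has 0 blank or summary rows, and totals ran from 6790209 to 11200406 counts.

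Columns were matched to samples by name. Counts were tested with edgeR 4.0.16 (R 4.3.3, limma 3.58.1): filterByExpr by group, TMM, and the quasi-likelihood F-test on all 33 libraries together (22 residual degrees of freedom), for 21 comparisons, with Benjamini-Hochberg adjustment over the 14613 genes tested, at 0.05. The SE is the log2 fold change divided by the square root of F. Tables and plots used Python 3.11.15, pandas 2.3.3 and matplotlib 3.10.9. On data simulated for Target-AID against nCas9 with HEKsite2 (14613 genes), 22%, 46%, 100% and 100% of genes changed 1.15, 1.25, 1.5 and 2-fold were recovered, with 8 calls among 14413 unchanged genes. Only 50 genes were changed at each fold, while 40.6% of genes were called in the data. The rates may therefore differ in the data.

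Gene positions and coding lengths came from GENCODE 29 (GRCh38). A coding length was found for 13248 tested genes (90.7%). The genes named are the 3 largest rises and falls among called members at a log2 CPM of at least 1 with groups that do not overlap, the core subunits, the NDUFAF genes and both NDUFA4 genes. A result for 1 core subunit is not reported here. Others are named as chosen after their values were seen. The members and the gene lists were chosen with earlier results of these data known. Alternatives were RLE factors, no filter, DESeq2 1.42.0, a replicate block, a fit on only the groups compared and leaving out each library. A coding length offset (lowess, span 0.3) and leaving out replicate 3 of Target-AID for both guides were added after seeing the data.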

Additional observations from a re-analysis of the deposited data

How the results depend on the processing

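Of 284 member calls, 284 kept direction and threshold with RLE factors, 271 without the filter, 270 with DESeq2, 260 when only the groups compared were fitted and 205 with the length offset, where 75 were lost and 4 turned: NDUFA4 stood at 0.033 with ABEmax and 0.013 with SpACE (HEKsite2, against nCas9), and NDUFV3 with Target-AID at 0.091 against nCas9 (HEKsite2) and 0.13 against GFP. NDUFV3, a subunit of the NADH-binding tip, had been called lower in both. The members called with RNF2 were then 5 (ABEmax), 4 (miniABEmax-V82G) and 14 (Target-AID) of 46, against 9.33%, 8.64% and 33.9% of all genes, in place of 11, 13 and 25, and these 3 counts are near the shares of all genes. When only the groups compared were fitted they were 22 (miniABEmax-V82G) and 13 (Target-AID) with RNF2, against 21.1% and 25.1% of all genes. For SpACE against Target-AID the count was 38 without the third Target-AID libraries, and for the guide in nCas9 it was 2 without the filter.

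Leaving out single libraries, the counts ran with HEKsite2 from 10 to 18 (ABEmax), 2 to 8 (miniABEmax-V82G) and 7 to 12 (SpACE), and with RNF2 from 5 to 8, 3 to 13 and 1 to 4 in the same order and 13 to 31 for Target-AID. They ran from 20 to 39 for SpACE against Target-AID and from 0 to 1 for the guide. The ranges for ABEmax with RNF2 and SpACE with HEKsite2 lie below their 11 and 13 calls in all libraries.

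The replicate numbers were not taken to pair the samples, since in 0 of 55 pairs of groups did all 3 same-numbered pairs correlate above 0.1. A weak tie by number is seen in the values. The mean correlation was 0.0246 for the same number and -0.0123 for different numbers, and 24 of 33 libraries correlated best with their own number. With the replicate block 282 of the 284 calls were kept, and the members called were 19 (ABEmax) and 14 (SpACE) with HEKsite2 and 10 (ABEmax) and 24 (Target-AID) with RNF2. NDUFA3 (ABEmax, RNF2, adjusted p = 0.0509) and NDUFA12 (Target-AID, RNF2, 0.0521) were lost. Depth limits NDUFA4L2, with 3 to 16 counts per library, and NDUFAF4P1.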

Other observations

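Of 11 regulators of respiratory genes, NRF1, a transcription factor of many of them, was higher than in nCas9 in 7 of 8 editor comparisons. With HEKsite2 its log2 fold change was 0.55 ± 0.12 (ABEmax), 0.49 ± 0.116 (miniABEmax-V82G), 0.46 ± 0.116 (Target-AID) and 0.78 ± 0.114 (SpACE), and with RNF2 it was 0.50 ± 0.112 (miniABEmax-V82G), 0.33 ± 0.111 (Target-AID) and 0.47 ± 0.111 (SpACE). In nCas9 it was lower than in GFP, at -0.38 ± 0.0961. GABPB1, a subunit of the factor GABP, was higher than GFP in all 5 constructs, from 0.48 in Target-AID to 0.70 in ABEmax and SpACE. ESRRA, a nuclear receptor that acts on mitochondrial genes, was also higher in all 5, at 0.38 to 0.76. The regulators called higher and lower were 2 and 0, 1 and 0, 4 and 1, and 2 and 0 with HEKsite2 (ABEmax, miniABEmax-V82G, Target-AID, SpACE) and 0 and 0, 3 and 0, 3 and 3, and 1 and 0 with RNF2, each of 11. Of all genes 8.31%, 5.02%, 21.5% and 10.7% were higher with HEKsite2 and 6.51%, 6.88%, 19.4% and 8.03% with RNF2, and with Target-AID 19.1% and 15.8% were lower. The genes were picked from the list after their values were seen.

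Of 11 other complex I assembly factors, whose symbols do not begin with NDUF, TMEM126B, which acts on the membrane arm with NDUFAF1, was lower with Target-AID at -0.39 ± 0.071 (HEKsite2) and -0.40 ± 0.0721 (RNF2). It was higher in nCas9 than in GFP, at 0.31. ACAD9, of the same assembly complex, was higher with Target-AID and RNF2 at 0.42 ± 0.0771, and FOXRED1 was higher than GFP in all 5 constructs, at 0.17 to 0.35. Against nCas9 these 11 factors gave at most 3 calls in a direction in any of the 8 editor comparisons. The 3 were lower with Target-AID and HEKsite2, where 19.1% of all genes were lower.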
